A study of Mus musculus with 13 samples.

Results

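Recurrent ESR1 sites in repeat-masked sequence were chosen by 2 properties of the peak lists and of the mouse genome. A merged peak region had to hold a peak in at least 5 of 10 ESR1 ChIP-Seq libraries, and over 50% of the bases within 100 bp of the summit of its strongest peak had to be soft-masked in mm10, that is, marked in the reference as repeat sequence. Of 228284 merged regions, 31807 were recurrent, and 1505 of these were masked. The other 30302 recurrent regions, called unmasked here, served for comparison. Of these, 15693 had no masked base in the window, so the name also covers partly masked regions. The strongest peak was the peak with the highest -log10 p in any of the 12 libraries.

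The libraries came from primary lower abdominal muscle fibroblasts of Aromhum mice, which express human aromatase, the enzyme that makes estradiol from testosterone, so all groups shared that genotype. There were 3 libraries for each of 4 treatments: vehicle (ethanol and DMSO), estradiol (E2) at 10 nM, the ESR1 antagonist fulvestrant at 100 nM, and both drugs together, called E2 plus fulvestrant. E2 or its solvent was present for 1 hour. Before that, the study starved the cells of serum overnight and pretreated them with fulvestrant or DMSO for 3 hours. Per the study's methods these were adherent cells enriched by preplating, and the peak lists themselves cannot show cell identity. E2 replicate 1 and fulvestrant replicate 2 were not counted by the rule. They stood apart from the rest with 104571 and 80754 peaks, against 34293 to 68971 in the other 10 libraries. All tests below use those 10 libraries, 5 given E2 (E2 replicates 2 and 3 and the 3 E2 plus fulvestrant libraries) and 5 not given it (the 3 vehicle libraries and fulvestrant replicates 1 and 3). The labels do not say whether replicates came from separate animals, so p-values measure the spread between these libraries.

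Interspersed repeats are copies of transposable elements. LINEs and endogenous retroviruses code, or once coded, for the proteins that copy them, and SINEs such as the mouse B1 element, derived from the 7SL RNA gene, depend on those of LINEs. Tandem repeats are short units or satellite monomers repeated head to tail. Copies of a transposable element share sequence, so an element that carries a binding motif spreads that motif through the genome. ESR1 binds DNA directly as a dimer at the estrogen response element (ERE), the palindrome GGTCA, any 3 bases, TGACC. Here an ERE allowed at most 1 mismatch.

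The masked sites that ranked highest and held a palindrome in their repeat sequence are shown first, because large rank differences with E2 below were measured over sites with this palindrome as a group. The set comes from the largest family of similar sequence among the 1505 sites (190 sites). Each line gives the gene with the nearest transcription start site (TSS), the mm10 position on the plus strand, and 61 bases with the palindrome in capitals.

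Gm44411, chr6:14043317-14043377: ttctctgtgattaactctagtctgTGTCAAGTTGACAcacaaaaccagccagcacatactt

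Gm22781, chr4:3766530-3766590: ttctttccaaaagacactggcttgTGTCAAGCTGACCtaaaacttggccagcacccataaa

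Cox7a2l, chr17:83542706-83542766: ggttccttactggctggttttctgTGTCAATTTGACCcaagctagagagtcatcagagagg

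AC113540.1, chr17:30358712-30358772: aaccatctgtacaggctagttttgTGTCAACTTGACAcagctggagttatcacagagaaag

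Hba-ps3, chr15:56240412-56240472: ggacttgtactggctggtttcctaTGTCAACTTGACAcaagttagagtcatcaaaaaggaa

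AC098733.1, chr19:59522461-59522521: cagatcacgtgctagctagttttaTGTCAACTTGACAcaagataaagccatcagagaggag

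The sites near Gm44411, Gm22781, AC113540.1 and AC098733.1 were intronic and those near Cox7a2l and Hba-ps3 intergenic. Positions count from 1 at the 5′ end of the ERE. Against the ERE, the sites near Gm22781 and Cox7a2l carried 1 substitution, G1T, and the other 4 carried 2, G1T and C13A. All 6 thus kept the inner bases, GTCA, any 3 bases, TGAC, which are called the inner palindrome below. This shorter motif was selected on these data, after it had been seen in this family. All 13 bases of each of the 6 palindromes were masked.

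The inner palindrome lay within 100 bp of the strongest summit in 133 of the 1505 masked sites, or 8.84% (Wilson 95% interval 7.51% to 10.4%). It was found in 1.97% of the unmasked recurrent regions (1.82% to 2.14%), some of which were partly masked. In windows of the same size 2 kb upstream it was found in 0.399% and 0.587%, respectively. Within the family of 190, 98 sites held it. Its centre lay a median of 20 bp from the strongest summit, and in 113 of the 133 sites it was within 50 bp. In the 598 unmasked regions with the motif the median was 22 bp.

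**Figure D1:**
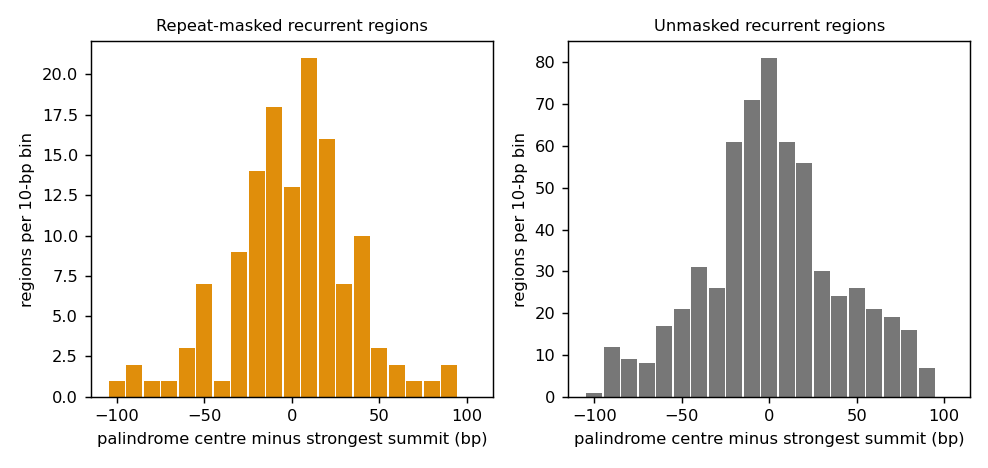
Distance in bp from the strongest summit to the centre of the inner palindrome in the 133 repeat-masked recurrent sites that hold it (left) and in 598 unmasked recurrent regions (right), as the number of regions per 10-bp bin. Both distributions are centred near the summit, with median distances of 20 and 22 bp.

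The full ERE, with at most 1 mismatch, was present in 64 masked sites (4.25%, 3.34% to 5.39%) and in 3.52% of unmasked regions (3.32% to 3.73%), with 0.598% and 0.535% in the upstream windows. Of the 64, 10 held an exact ERE and 54 an ERE with 1 mismatch. The ERE lay wholly in masked bases in 39 sites, wholly in the unmasked rest of the window in 14, and across the border in 11. Of these 64 sites, 51 also held the inner palindrome. Beside the Gm22781 and Cox7a2l sites above, and a promoter site that is not shown, the following sites with an ERE (capitals) ranked highest.

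Mettl7a3, chr15:100320777-100320829: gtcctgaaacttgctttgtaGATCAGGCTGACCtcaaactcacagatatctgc

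Dclk1, chr3:55447820-55447872: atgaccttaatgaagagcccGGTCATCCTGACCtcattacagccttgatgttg

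5430403N17Rik, chr8:35923102-35923154: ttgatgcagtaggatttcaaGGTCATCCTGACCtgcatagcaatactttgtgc

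The Mettl7a3 site carried G2A, and the ERE near the lincRNA gene 5430403N17Rik and that in an intron near Dclk1, which codes for a doublecortin-like kinase, were exact. The ERE was masked at Mettl7a3 and 5430403N17Rik and unmasked at Dclk1, whose window also holds an AG tandem stretch.

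The question of the series design, how binding differs with and without estrogen, was put to these sites by rank. In each library all recurrent regions were ranked by -log10 p, from 0 (strongest) to 100, with regions that had no peak tied at the bottom. The value was that of the library's strongest peak anywhere in the region, and masked sites had a median length of 1432 bp. Ranks were used because fold enrichment differed in scale between libraries, with a median over masked sites present of 2.92 to 3.78 among the 10 libraries.

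Masked sites with an ERE ranked higher in every one of the 5 libraries given E2, also where only sites with a peak in all 10 libraries were counted. Over all 64, their median rank percentile was 74.7, 81.3 and 73.9 in the vehicle libraries and 64.2 and 72.5 with fulvestrant alone. It was 22.2 and 33.3 with E2, and 36.2, 25.4 and 29.6 with E2 plus fulvestrant. The 2 sides did not overlap. The mean was 29.3 ± 5.68 (SD, n = 5) with E2 given and 73.3 ± 6.13 (n = 5) without, a difference of -44.0 percentile points (two-sided exact permutation p = 0.00794, the smallest that this design can give; 0.0397 after Benjamini-Hochberg adjustment over 5 comparisons). With all 12 libraries the difference was -38.3 (exact permutation p = 0.00433). In the added E2 replicate 1 and fulvestrant replicate 2 the medians were 70.6 and 80.3, the tied ranks of sites without a peak. ERE sites had a peak there in 20.3% and 37.5% of cases. E2 replicate 1 thus lay among the libraries not given E2.

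A site could meet the rule through the 5 libraries given E2 alone, and ERE sites had a peak in 78.1% to 100% of cases in those libraries and in 42.2% to 57.8% in the others. The median of 81.3 in vehicle replicate 2 is the tied rank of sites without a peak. The comparison was therefore repeated, after the data had been seen. Regions had to have a peak in all 10 libraries, so none could enter by presence on 1 side alone, and were ranked among themselves. The 16 masked ERE sites among them had median ranks of 26.01, 39.9 and 19.98 with vehicle and 45.01 and 40.8 with fulvestrant. With E2 they were 3.16 and 3.79, and with E2 plus fulvestrant 6.23, 5.28 and 2.91. The sides did not overlap, and the difference was -30.1 points (exact permutation p = 0.00794). In sites with a peak in at least 8 of the 10 libraries it was -31.8 (exact permutation p = 0.0159).

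Sites with the inner palindrome had the same direction in both counts. Over all 133, their median rank percentile was 69.0, 81.3 and 62.1 with vehicle and 63.0 and 70.4 with fulvestrant. It was 18.01 and 29.6 with E2, and 36.2, 23.5 and 22.0 with E2 plus fulvestrant. The 2 sides again did not overlap, with a difference of -43.3 points (exact permutation p = 0.00794, adjusted p = 0.0397). With all 12 libraries it was -37.7 (exact permutation p = 0.0108). The medians in E2 replicate 1 and fulvestrant replicate 2 were again the tied ranks, 70.6 and 80.3. These sites too had a peak more often in the libraries given E2, at 80.5% to 99.2% against 41.4% to 62.4%, and could meet the rule through those libraries alone. The 30 with a peak in all 10 libraries had median ranks of 36.0, 42.5 and 30.01 with vehicle, 40.7 and 42.5 with fulvestrant, 4.55 and 13.3 with E2, and 16.3, 4.77 and 5.38 with E2 plus fulvestrant. The sides did not overlap, with a difference of -29.5 points (exact permutation p = 0.00794). The motif was again read at the strongest summit, with the same limit. In the 82 of these sites that held no ERE, because both outer bases differed, the median ranks were 60.4, 81.3 and 53.0 with vehicle, 62.7 and 68.5 with fulvestrant, 17.2 and 29.1 with E2, and 37.3, 24.5 and 20.6 with E2 plus fulvestrant. The remaining masked sites, with neither motif, had lower ranks with E2 given, at 67.6 ± 2.33 (n = 5) against 59.8 ± 2.25 (n = 5). Ranks are relative, so a rise of some regions lowers others.

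**Figure D2:**
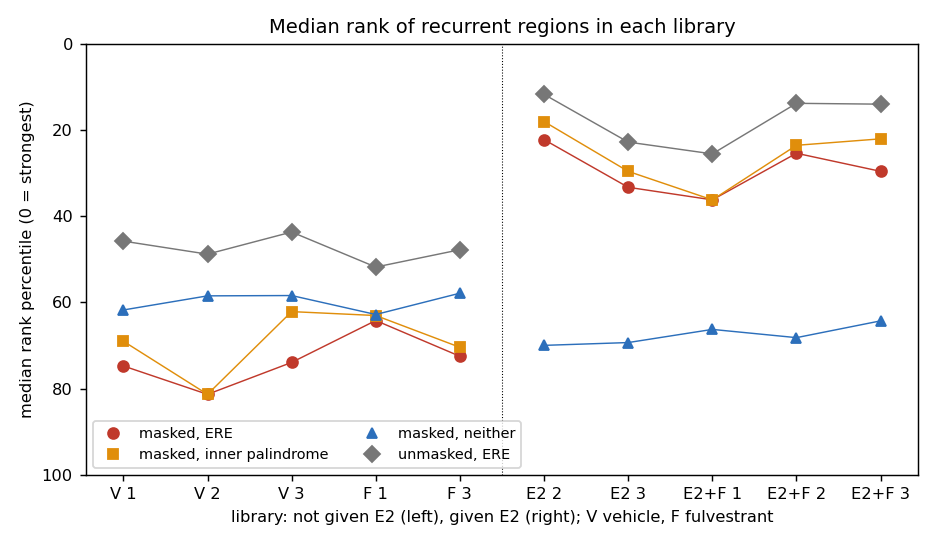
Median rank percentile (0 is strongest) in each of the 10 libraries, for repeat-masked sites with an ERE (circles), with the inner palindrome (squares) or with neither (triangles), and for unmasked recurrent regions with an ERE (diamonds). In the 5 libraries given E2 (right) masked ERE sites sit between 22.2 and 36.2, and in the 5 others (left) between 64.2 and 81.3.

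Unmasked regions with an ERE ranked higher throughout, at 17.5 ± 6.16 with E2 given (n = 5) and 47.5 ± 3.08 without (n = 5). Their difference between treatments was smaller than that of masked ERE sites (a difference of differences of -14.02 points, exact permutation p = 0.0159). This comparison depended on how sites and summits were chosen: it was -11.3 (exact p = 0.0556) with the strongest peak taken by -log10 q, -3.28 (exact p = 0.659) among sites recurrent in at least 8 of the 10 libraries, -4.45 (exact p = 0.286) among those in all 10, and 0.14 (exact p = 0.968) with a masked share over 80%.

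Comparisons of single treatments had 2 or 3 libraries on a side, and an exact permutation test could then not go below p = 0.1. Masked ERE sites differed by -48.9 points between E2 and vehicle and by -46.3 between E2 plus fulvestrant and vehicle (exact p = 0.1 for each). The difference between E2 and E2 plus fulvestrant was -2.64 points (exact p = 0.7), and that between fulvestrant and vehicle was -8.32 (exact p = 0.1). For sites with the inner palindrome the corresponding differences were -47.0, -43.6, -3.46 and -4.10 (exact p = 0.1, 0.1, 0.7 and 0.9). The effect of E2 on masked ERE sites without and with fulvestrant differed by -11.0 points (exact permutation over 25200 assignments, p = 0.595). The E2 and E2 plus fulvestrant libraries overlapped on both motifs, and such p-values do not show that the treatments acted alike.

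Per library, the share of masked-site peaks with an ERE within 100 bp of that library's own summit moved in the same way. It was 2.34%, 2.08% and 3.10% with vehicle and 3.03% and 2.37% with fulvestrant. It was 4.78% and 4.44% with E2, and 5.42%, 5.51% and 4.69% with E2 plus fulvestrant. The sides did not overlap (difference 2.39 percentage points, exact permutation p = 0.00794, adjusted p = 0.0397). The difference was 0.963 points in sites with a peak in at least 8 libraries and 1.33 in those with a peak in all 10 (exact permutation p = 0.00794 for each). In the libraries not counted by the rule the share was 1.13% (E2 replicate 1) and 1.15% (fulvestrant replicate 2), below all others.

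Single sites were then compared. Of the 1505 masked sites, 70 (4.65%) ranked higher in every library given E2 than in every other library, and 18 (1.20%) ranked lower. Over all recurrent regions these shares were 4.61% and 1.74%, so the masked sites as a whole did not stand out. The 70 included 24 of the 64 sites with an ERE (37.5%) and 46 of the 133 with the inner palindrome (34.6%), and none of the 18 lower sites held either motif. Unmasked regions with the inner palindrome did much the same. Of those with an exact ERE, 84 of 212 ranked higher in every library given E2. So did 87 of 236 with 1 outer base changed and 27 of 150 with 2, and 1 of the latter ranked lower. Sites that entered the rule through libraries given E2 had to differ, so limma was also run on fold enrichment over the 12029 recurrent regions with a peak in all 10 libraries. These included 347 masked sites. The enrichment was again that of the strongest peak anywhere in the region, and motifs were those at the strongest summit of any library. Where each library's own summit had to lie within 100 bp of the strongest summit, 26 masked sites could be tested. Of these 10 were higher and 1 lower, against 326 and 177 of the 2070 regions tested.

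Of the 347, 25 had higher enrichment with E2 given and 3 lower (limma, quantile-normalized log2 fold enrichment, adjusted p below 0.05 over the 12029 regions). Over all 12029 regions 6.94% were higher and 1.25% lower. Among the 33 tested masked sites with an ERE or the inner palindrome, 17 were higher and none lower, with a median log2 difference of 0.57. Among the 314 with neither, 8 were higher and 3 lower, with a median of -0.07, and the median over all regions was -0.05. With the 2 libraries not counted by the rule added, 2 of 198 masked sites were higher, both among the 25, and 27 of the 7816 regions with a peak in all 12 were.

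In the single contrasts, 7 masked sites were higher and 2 lower with E2 than with vehicle, against 2.31% and 0.316% of all regions. The count of higher sites depended on single libraries: it was 0 without E2 replicate 2 (3 of 12053 regions; 1 masked site lower), 1 without E2 replicate 3, 3 each without vehicle replicate 1, vehicle replicate 2 or E2 plus fulvestrant replicate 2, and 11 and 13 without fulvestrant replicate 1 or 3. With E2 plus fulvestrant, 15 were higher and 1 lower than with vehicle, against 3.63% and 0.54%. There the higher count was 5 without E2 plus fulvestrant replicate 2, 6 without replicate 3, 8 without vehicle replicate 1, and 11 to 22 without each of the others. No masked site passed between E2 and E2 plus fulvestrant, where 0% of regions were higher and 0.0249% lower, or between fulvestrant and vehicle, where 0.0748% were higher and 0.0249% lower. At an unadjusted p under 0.05 in limma, 27 of the 347 masked sites differed in each of these last contrasts. The contrasts with vehicle share the vehicle libraries.

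The site with the largest log2 difference lay 2080 bp from a TSS of Nkain1, which codes for a protein that interacts with the Na,K-ATPase (chr4:130575776-130577012). It held an ERE and the inner palindrome. Its fold enrichment was 4.56, 3.92 and 4.12 with vehicle and 6.97 and 4.30 with fulvestrant. It was 19.3 and 16.5 with E2, and 16.2, 22.1 and 23.5 with E2 plus fulvestrant. All 5 libraries given E2 were above all 5 others, with a log2 difference of 1.33 ± 0.15 (SE; limma adjusted p = 1.1e-05). E2 replicate 1 had no peak there, and fulvestrant replicate 2 had a fold enrichment of 4.37.

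The intronic site nearest Scg5, the gene of the secretory chaperone 7B2, also held both motifs (chr2:113820986-113822638). Its fold enrichment was 6.70, 4.99 and 4.95 with vehicle and 5.04 and 2.90 with fulvestrant. It was 18.9 and 16.3 with E2, and 8.36, 14.9 and 19.4 with E2 plus fulvestrant. The sides did not overlap, and the log2 difference was 1.13 ± 0.16 (limma adjusted p = 7.7e-05). With all 12 libraries, among which E2 replicate 1 had 4.11, it was 0.95 (limma adjusted p = 0.201).

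An intronic site near Popdc2, which codes for a Popeye-domain membrane protein, held the inner palindrome without an ERE (chr16:38367936-38368916). Fold enrichment there was 3.48, 2.32 and 3.04 with vehicle and 2.87 and 2.27 with fulvestrant. It was 9.81 and 7.55 with E2, and 4.72, 7.81 and 8.83 with E2 plus fulvestrant, for a log2 difference of 1.13 ± 0.18 (limma adjusted p = 0.000118). Again the sides did not overlap.

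The site near the lincRNA gene Gm14216 on chromosome 2 likewise held the inner palindrome alone and differed by 0.98 ± 0.16 (adjusted p = 0.000232). At Cox7a2l, whose product helps assemble respiratory supercomplexes, fold enrichment was 6.19 to 7.53 in the vehicle libraries, 8.03 and 6.34 with fulvestrant and 12.04 to 24.2 in the 5 libraries given E2, while E2 replicate 1 had 3.62, with a log2 difference of 0.74 ± 0.14 (adjusted p = 0.000605). At Mettl7a3 the vehicle libraries had 4.798 to 5.98, the fulvestrant libraries 5.63 and 5.94, the 5 libraries given E2 9.84 to 17.8 and E2 replicate 1 had 8.04, with a difference of 0.73 ± 0.14 (adjusted p = 0.00118), which with all 12 libraries was 0.80 (adjusted p = 0.26). The Gm47582 site on chromosome 10, 569 bp from a TSS, held neither motif and differed by 1.04 ± 0.18 (adjusted p = 0.000324).

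Quantile normalization gives regions of equal rank in each library the same value, so a region at the top of every list keeps nearly the same value. The Gm44411 site had the best mean rank of all masked sites, 0.172. Its deposited fold enrichment was 12.9, 13.4 and 14.2 with vehicle, 11.6 and 14.5 with fulvestrant, 30.8 and 29.4 with E2, and 17.1, 25.6 and 33.8 with E2 plus fulvestrant. The 5 libraries given E2 were above the 5 others on that scale, while E2 replicate 1, not counted by the rule, had 6.05, below all 10. Its rank percentile was 0.09 to 0.22 with vehicle, 0.44 and 0.14 with fulvestrant, 0.14 and 0.13 with E2, and 0.09 to 0.19 with E2 plus fulvestrant. The normalized log2 difference was 0.03 ± 0.12 (limma adjusted p = 0.947). Whether the deposited difference came from the scale of the libraries was not tested. At the sites near Gm22781 and Dclk1 the deposited values also did not overlap among the 10 libraries, and E2 replicate 1 had 3.84 and 10.1. Their normalized differences of 0.33 and 0.33 did not pass (limma adjusted p = 0.117 and 0.227).

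**Figure D3:**
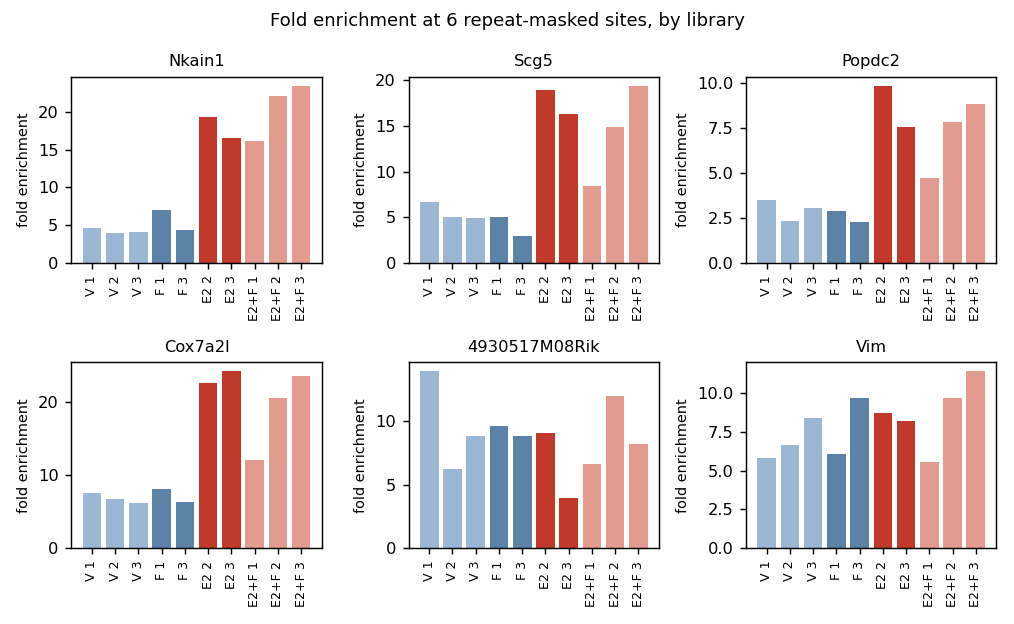
Deposited fold enrichment in each of the 10 libraries (bars; V vehicle, F fulvestrant, E2+F E2 plus fulvestrant) at 6 repeat-masked sites named by the nearest TSS. At Nkain1, Scg5, Popdc2 and Cox7a2l the bars of the 5 libraries given E2 are above all others; at 4930517M08Rik the normalized enrichment was lower with E2 given, and at Vim it did not pass the test.

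Of the 3 sites that were lower with E2 given, the largest difference was at an intergenic site near the lincRNA gene 4930517M08Rik, which held an AATGG tandem stretch (chr17:4625989-4626761). Its fold enrichment was 13.9, 6.23 and 8.84 with vehicle, 9.62 and 8.81 with fulvestrant, 9.04 and 3.94 with E2, and 6.57, 11.97 and 8.17 with E2 plus fulvestrant. The deposited values of the sides overlapped, and the normalized log2 difference was -1.03 ± 0.22 (adjusted p = 0.00207). With median centring it was -0.66 (adjusted p = 0.0679). A site in a tandem repeat near Mpp7, the gene of a membrane scaffold protein, differed by -0.60 ± 0.16 (adjusted p = 0.0153), by -0.54 without E2 replicate 2 (adjusted p = 0.106), by -0.48 without fulvestrant replicate 3 (adjusted p = 0.107) and by -0.09 with median centring (adjusted p = 0.867). Only 19.7% of the 75-base words in its window were unique in mm10. Its deposited fold enrichment was 12.6, 8.95 and 8.05 with vehicle and 8.41 and 10.05 with fulvestrant. It was 10.2 and 12.1 with E2, and 6.59, 12.5 and 15.0 with E2 plus fulvestrant. These values overlapped between the sides, and the lower call was made on the normalized scale. E2 replicate 1 had 58.6 and fulvestrant replicate 2 had 22.3. The third, near Gm26008, differed by -0.50 ± 0.16 (adjusted p = 0.0468) and lost its call when any of 8 of the 10 libraries was left out. The 5 best ranked of the 18 sites whose ranks were lower in every library given E2 lay near Mpp7, Adamts6, Irs1, Hoxb8 and Them7.

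Among genes listed for their roles in E2 response, matrix and fibroblasts, few had a masked site as nearest neighbour. Of 10 genes that the study names for E2, Adamts6 and Ccn3 had 5 sites between them (0.332% of masked sites, against 0.0891% of unmasked regions). The study named those genes from its own E2 experiments, so the list is not independent evidence. The best ranked of the 5 lay 81 bp from a TSS of Adamts6, a secreted metalloprotease (chr13:104285086-104292248), at a GA repeat, and had a peak in all 12 libraries. Its fold enrichment was 7.83, 6.71 and 7.29 with vehicle, 8.52 and 6.81 with fulvestrant, 10.6 and 10.2 with E2, and 5.80, 6.30 and 7.86 with E2 plus fulvestrant. The 2 sides overlapped: values with E2 alone were above all with vehicle or fulvestrant, and those with E2 plus fulvestrant were not. E2 replicate 1 had 21.3 and fulvestrant replicate 2 had 6.69. Its ranks were lower in each of the 5 libraries given E2, and the normalized log2 difference was -0.42 ± 0.14 (limma adjusted p = 0.0765).

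Collagens and other matrix genes had 7 masked sites (0.465%, against 0.34% of unmasked regions), near Col1a2, Col4a1, Dcn, Eln, Lum and Sparc. The site 2411 bp from a TSS of Col1a2, a chain of type I collagen, lay wholly in masked bases and differed by 0.02 ± 0.16 (adjusted p = 0.975). Estrogen target genes had 1 site, near Nrip1, and the TGF-beta pathway 2, both near Ltbp4, which binds latent TGF-beta. Fibroblast identity genes had 3, near Vim and Tcf4, and genes that silence transposable elements had 1, near Dnmt1. Of the sites on these lists 2 ranked lower in every library given E2 from the study's genes and 1 from the matrix genes, near Dcn, and none ranked higher, against 1.74% and 4.61% of all recurrent regions.

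The masked bases belonged to several kinds of repeat. Among the 1505 sites, 537 fell into 47 families whose windows aligned over at least 100 bases at 75% identity or more. The 190-site family was chained from overlapping pieces: of its 92 sites without the inner palindrome, 74 aligned to a site with it, but only 3 of those alignments covered the place of the palindrome, each with 1 of the 8 inner bases changed. The 98 sites with the palindrome had median ranks of 60.5, 81.3 and 53.0 with vehicle, 61.5 and 70.0 with fulvestrant, 13.1 and 22.9 with E2, and 32.7, 20.9 and 17.5 with E2 plus fulvestrant. The 92 without it had 64.3, 62.0 and 82.9 with vehicle, 70.6 and 65.1 with fulvestrant, 77.3 and 80.6 with E2, and 86.2, 70.6 and 65.3 with E2 plus fulvestrant. Of the former 35 ranked higher in every library given E2, and of the latter none did and 2 ranked lower. Over all recurrent regions 4.61% ranked higher and 1.74% lower. The 98 sites had a peak in 81.6% to 99.0% of cases in libraries given E2 and in 41.8% to 62.2% in the others. They could therefore meet the rule through the former libraries alone, and these counts are a description.

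The most frequent palindrome of the family, TGTCAACTTGACA or its reverse complement, occurred in 69 of the 98 sites. It occurs 28950 times in mm10, and 116 of those copies (0.401%, Wilson interval 0.334% to 0.480%) lay within 100 bp of a recurrent summit. The form GGTCAAGTTGACA, which has 1 outer base of the ERE, occurs 856 times, and 27 copies (3.15%, 2.18% to 4.55%) lay at a recurrent summit. Over all inner palindromes that are wholly masked, the share at a recurrent summit was 0.331% of 43789 copies with both outer bases changed, 1.52% of 3349 with 1 changed, and 3.81% of 236 exact EREs. Among copies not wholly masked the shares were 0.419%, 1.91% and 10.0%. The intervals of masked and other copies overlapped for 1 and 2 changed bases and did not for exact EREs (2.02% to 7.09% against 8.84% to 11.4%). The intervals cover counting error only, and reads that match several copies cannot be placed with certainty.

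**Figure D4:**
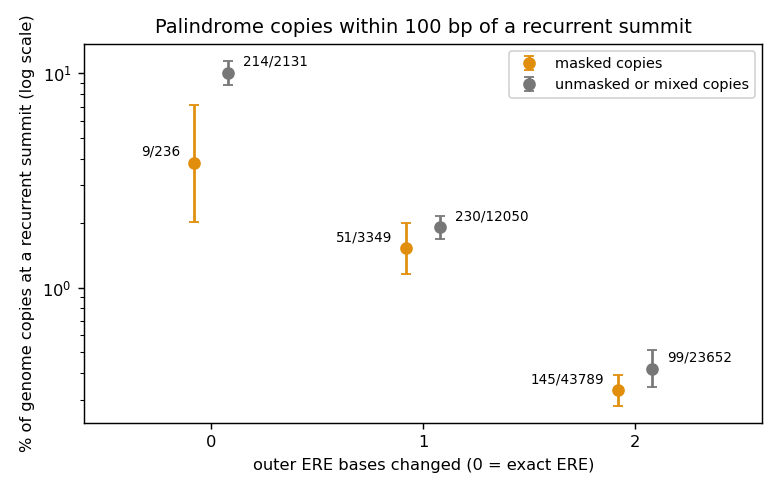
Share of all copies of the inner palindrome in mm10 that lie within 100 bp of a recurrent summit (log axis), by the number of outer ERE bases that differ, for copies wholly in masked bases and other copies. Bars are Wilson 95% intervals, and the counts stand beside the points; the share falls from 3.81% to 0.331% in masked and from 10.0% to 0.419% in other copies.

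Among masked sites with the inner palindrome, the number of changed outer bases went with little difference in rank. With E2 given, the median of the sites' mean rank was 33.7 in the 10 sites with an exact ERE, 32.97 in the 41 with 1 change and 30.2 in the 82 with 2. In unmasked regions it was 7.88 in 212 regions, 19.5 in 236 and 41.4 in 150. These medians are a description without a test.

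The next family, of 128 sites, included 14 that aligned to the 7SL RNA genes Rn7s1 and Rn7s2, as B1 elements do. A member in an intron near Wwp2, the gene of a ubiquitin ligase, is shown, with the 13 bases nearest to an ERE in capitals.

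Wwp2, chr8:107499359-107499431: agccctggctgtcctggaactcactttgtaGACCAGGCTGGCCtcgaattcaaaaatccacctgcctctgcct

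The 13 bases differed from the ERE by G2A, T3C and A11G. In 89 of the 128 sites the nearest match to an ERE had 3 mismatches, in 12 it had 2, and in 4 it had 1. The Mettl7a3 site above was 1 of these 4. The family lay more often near promoters than other masked sites, with 42 sites (32.8%) within 3 kb of a TSS, and its median ranks were 58.5 to 59.6 with vehicle and 62.4 to 72.1 in the libraries given E2. Of its sites 3 ranked higher in every library given E2 and 1 lower, against 4.61% and 1.74% of all recurrent regions.

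A small family of 5 sites held EREs in 4. The 4 are shown on the plus strand, with the ERE in capitals.

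Gm11779, chr4:5148982-5149042: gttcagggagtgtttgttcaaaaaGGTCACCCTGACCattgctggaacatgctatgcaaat

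Ly6k, chr15:74802415-74802475: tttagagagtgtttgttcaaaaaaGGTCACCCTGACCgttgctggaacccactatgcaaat

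Gm24144, chr15:8234357-8234417: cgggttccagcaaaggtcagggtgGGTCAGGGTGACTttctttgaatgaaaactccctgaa

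Gm27150, chr7:106279635-106279695: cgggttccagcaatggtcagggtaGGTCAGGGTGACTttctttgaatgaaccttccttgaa

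The copies near Gm11779 and Ly6k held exact EREs and lay in the opposite orientation to those near Gm24144 and Gm27150, which carried C13T. Of the 5 sites 3 ranked higher in every library given E2, against 4.61% of all recurrent regions. None had a peak in all 10 libraries, and such sites could meet the rule through the libraries given E2 alone. At Gm11779 fold enrichment was 4.61 and 6.68 with E2 and 3.14, 5.07 and 5.69 with E2 plus fulvestrant, and of the 5 libraries not given E2 only vehicle replicate 3 had a peak (3.64). At Gm24144 it was 5.71 and 4.59 with E2 and 4.75 and 7.34 in E2 plus fulvestrant replicates 2 and 3, and of the libraries not given E2 only fulvestrant replicate 3 had a peak (2.93). At Ly6k it was 4.39 and 5.01 with E2 and 4.03, 3.69 and 5.92 with E2 plus fulvestrant. Vehicle replicate 1 (3.22) and fulvestrant replicate 1 (2.71) also had peaks there. At Gm27150 it was 3.89 and 6.83 with E2 and 2.29, 3.04 and 3.61 with E2 plus fulvestrant. Vehicle replicate 1 had 2.47, fulvestrant replicate 3 had 2.29 and E2 replicate 1 had 4.09.

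Simple tandem stretches, of at least 24 bp with a unit of 1 to 6 bp, were present in 405 masked sites (26.9%), against 2.06% of unmasked regions. The unit was CA (or TG on the other strand) in 202 sites and GA (or TC) in 60. A CA repeat in an intron near Rbms3, which codes for an RNA-binding protein, is shown with the stretch in capitals.

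Rbms3, chr9:117246507-117246570: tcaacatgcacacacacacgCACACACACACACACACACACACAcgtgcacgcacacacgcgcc

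Its fold enrichment was 5.16, 4.38 and 5.35 with vehicle, 8.42 and 7.08 with fulvestrant, 8.03 and 9.63 with E2, and 5.59, 4.92 and 6.32 with E2 plus fulvestrant. These values overlapped between the sides. It was 18.1 in E2 replicate 1. Over the 405 sites, median ranks were 54.5 to 59.3 with vehicle and 59.6 to 67.6 in the libraries given E2, 7 sites ranked higher in every library given E2 and 6 lower (4.61% and 1.74% of all recurrent regions did), and of 112 tested with limma 2 were higher and 2 lower (6.94% and 1.25% of all regions tested).

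A further 104 sites were multi-copy, with under 50% of the 75-base words in the window unique in mm10 (75 bases was the read length). In 1166 sites (77.5%) all such words were unique. E2 replicate 1 had a peak in 85.6% of the 104 multi-copy sites (Wilson 77.6% to 91.1%) and fulvestrant replicate 2 in 90.4% (83.2% to 94.7%), against 37.97% (35.5% to 40.5%) and 55.4% (52.8% to 58.0%) of the other 1401 sites. In the 10 libraries of the rule multi-copy sites had a peak in 45.2% to 95.2% of cases. Of the 104, 70 had their strongest peak in E2 replicate 1, so a peak there was fixed for these by the choice of the summit, and the shares are given as a description. Sites with the inner palindrome had a peak in the same 2 libraries in 17.3% (11.8% to 24.6%) and 36.8% (29.1% to 45.3%). How far read placement among copies contributed to these shares was not tested.

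**Figure D5:**
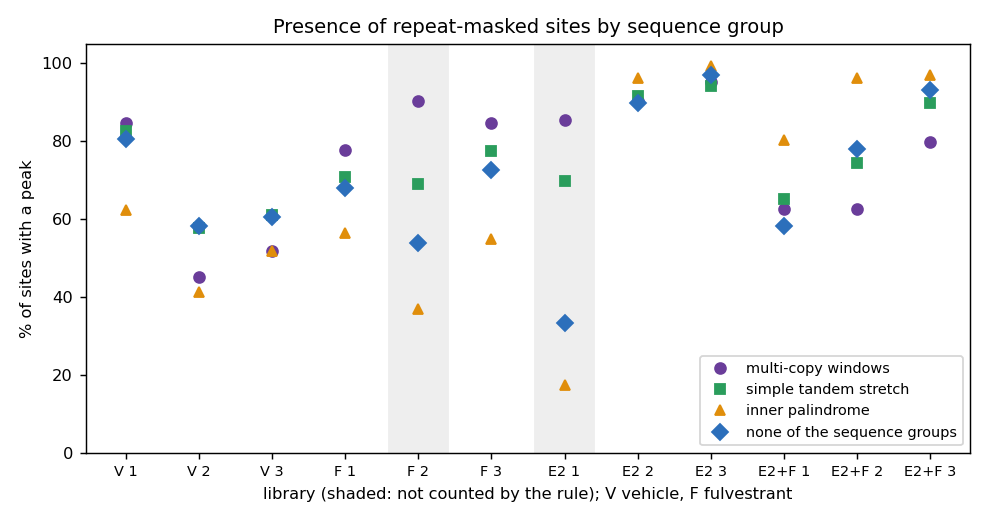
Share of repeat-masked sites with a peak in each of the 12 libraries (V vehicle, F fulvestrant, E2+F E2 plus fulvestrant), by sequence group; shaded libraries were not counted by the rule. Multi-copy sites were present in 85.6% and 90.4% and sites with the inner palindrome in 17.3% and 36.8% of cases in the shaded E2 and fulvestrant libraries.

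The multi-copy sites held satellite and telomere-type arrays. A region of 38577 bp at chr9:2999871-3038447, near Gm11168, had a repeat period of 234 bp, the unit length of the mouse major satellite. It had a peak in all 12 libraries, with fold enrichment of 1.45 to 1.72 in the 10 libraries of the rule, and of 3.91 and 1.95 in the other two, E2 replicate 1 and fulvestrant replicate 2. The sites near Mrgprd, Gm20039 and 4930404O17Rik were built of the 6-base telomere-type unit AACCCT. Their fold enrichment was 1.22 to 1.55 in the libraries of the rule that had a peak, while E2 replicate 1 had 3.62 to 3.85 and fulvestrant replicate 2 had 1.78 to 1.98.

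As a set, masked sites were weaker and more distal than unmasked recurrent regions. Their median rank percentile was 58.4 to 66.9 in the 10 libraries, against 49.1 to 49.6, a difference of 13.3 points in the direction of weaker peaks (exact sign-flip permutation over 10 libraries, p = 0.00195, the smallest it allows; adjusted p = 0.00293). With E2 given they ranked 4.55 points weaker than without (64.9 against 60.3, exact permutation p = 0.0238, adjusted p = 0.119). Of the 1505 sites, 347 (23.1%) had a peak in all 10 libraries, against 38.6% of unmasked regions, and 323 (21.5%) in exactly 5, against 14.3%. Just outside the rule, 439 masked regions had a peak in 4 libraries and 717 recurrent regions were masked over 40% to 50%, and just inside it 477 were masked over 50% to 60%.

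By the strongest summit, 301 masked sites (20%) were promoter sites within 3 kb of a TSS, 619 (41.1%) intronic, 572 (38.01%) intergenic and 13 (0.864%) exonic. Of unmasked regions 41.5% were promoter sites. By each library's own summits the promoter share was 19.4% to 22.2% for masked and 41.2% to 51.0% for unmasked peaks. The difference was -24.6 percentage points (exact sign-flip permutation p = 0.00195, adjusted p = 0.00293). All libraries share the same regions, so the p-values of the sign-flip tests cover the spread between libraries only. The ERE share at own summits differed by 0.623 percentage points (exact sign-flip p = 0.0469, adjusted p = 0.0469), and this small difference did not hold under several alternatives. Of motifs of promoter factors, the SP site GGGCGG was rarer in masked sites, at 4.05% against 17.4%. The ETS site CCGGAAG was too, at 0.731% against 2.75%. The NF-Y and YY1 sites were not, at 19.1% against 18.8% and 1.33% against 1.07%. The AP-1 site, TGANTCA, was present in 7.44% (6.22% to 8.88%) and 9.32% (9.001% to 9.66%). All motifs were searched on both strands within 100 bp of the strongest summit.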

How the data were processed

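ESR1 ChIP-Seq was deposited as 12 peak lists, 1 per library, with the input not analysed here. Per the study's methods and the labels, the authors trimmed 75-base single-end reads (Trimmomatic 0.39), aligned them to mm10 (Bowtie2), removed duplicates (Picard 2.21.4) and called peaks (MACS2). Each deposited list gave a ratio (fold enrichment of the summit against local background), -log10 p-values and -log10 q-values, a score (not used) and the summit. Read totals and depth are unknown from the lists, so intervals are Wilson 95% intervals on regions and cover counting error only. The study's DESeq2 test of counts in consensus peaks and its removal of batch effects were not run, because the lists hold no reads and the labels give no batch. The study filtered out blacklisted peaks, and whether before or after these lists were written was not stated.

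Peaks sharing at least 1 bp were merged into regions, and the list columns identified the summit of the strongest peak (highest -log10 p). Masking was the soft-masking of the RefSeq GRCm38.p6 sequence, 36.4% of called bases; the program behind it and the names of the repeats are not given in the sources used here. TSSs were those of the GENCODE vM21 basic set. Copies were counted as exact 75-base and 20-base words in mm10. Families were connected components of blastn 2.17.0 alignments of the windows within 100 bp of the summits, with limits set after looser ones had joined simple repeats. Treatments were compared with exact permutation tests over libraries and with limma 3.58.1 (trend) on quantile-normalized log2 fold enrichment, which was tested on simulated data. Named sites were the 10 best mean ranks among all sites, among sites with an ERE and among sites near listed genes, the 5 largest limma differences and the 5 best ranked of the sites without overlap in each direction, and the best site of the 3 largest families; sites named beyond this rule were chosen after their values were seen. Sites and lists were chosen with earlier results of these data known. The 45 sites on chromosome 18 are not shown by sequence.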

Additional observations from a re-analysis of the deposited data

How the results depend on the processing

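The higher rank with E2 given of masked sites with an ERE and with the inner palindrome kept its direction and its side of the threshold in 23 of 23 alternatives each. The values were -46.3 to -42.0 and -45.9 to -40.3 points when 1 library at a time was left out, and -68.2 to -30.1 and -64.1 to -29.5 under the others, with the smallest sizes in sites with a peak in all 10 libraries (added after seeing the data). The comparison over all masked sites did not. It ranged from 4.05 to 5.40 without single libraries, lost its call at 2.86 in sites in at least 8 libraries and at 0.97 in sites in all 10, and turned to -1.83 when a library's own summit had to lie within 100 bp, to -17.5 with peaks of -log10 q of at least 10, and to -20.3 when ranked in the whole list, and the cause was not tested. The difference of differences between masked and unmasked ERE regions was -11.7 with all 12 libraries, -11.3 with the strongest peak by -log10 q (chosen after seeing the data), -3.28 in sites in at least 8 libraries, -4.45 in sites in all 10, -7.88 by own summits, 0.14 at over 80% masked and 6.99 at -log10 q of at least 10, and ranged from -17.4 to -12.3 without single libraries. The difference in ERE share with E2 given lost its call at -log10 q of at least 10 (1.89 points, exact permutation p = 0.23). It kept it in the 21 others, at 0.963 in sites in at least 8 libraries, 1.33 in sites in all 10 and 6.13 by own summits.

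Against unmasked regions, the ERE share difference was 0.426 with all 12 libraries, 0.212 in sites in at least 8 libraries, 0.302 with a 50-bp window, -0.325 at over 80% masked, -0.0959 with the strongest peak by fold, and 0.504 to 0.758 without single libraries, where it lost its call without 7 of the 10. The rank difference lost its call at -log10 q of at least 10 (8.03, exact permutation p = 0.0547). The number of masked sites was 737 in at least 8 libraries, 347 in all 10, 480 at over 80% masked, 424 by own summits and 141 at -log10 q of at least 10.

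Sites higher in limma numbered 38 on -log10 p, 2 with all 12 libraries and 42 among regions in at least 8 libraries. They numbered 3 at over 80% masked, 10 by own summits (of 26 tested) and 6 at -log10 q of at least 10. Without single libraries they numbered 17 to 32. Sites lower numbered 5, 0, 5, 2, 1 and 1 in the same order, 6 with a 50-bp window, and 1 to 7 without single libraries (1 without E2 replicate 2, 7 without fulvestrant replicate 1, and 6 each without E2 plus fulvestrant replicate 3 and without vehicle replicate 3). Sites without overlap numbered 23 higher and 2 lower with all 12 libraries, 35 and 10 in at least 8 libraries, 20 and 6 in all 10, 20 and 8 at over 80% masked, 40 and 1 by own summits and 23 and 5 at -log10 q of at least 10, 1 lower by whole-list ranks, and 71 to 101 higher and 28 to 39 lower without single libraries, which fewer libraries to separate make easier. For 13 named sites past the limma threshold, 233 of 262 alternative values kept their call, 29 lost it and 0 changed direction.

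The smaller comparisons had no call to lose, and several changed sign. For ERE sites, E2 against E2 plus fulvestrant was 11.6 with all 12 libraries and -8.17 to 2.89 without single libraries (0.269 and 2.89 where it turned). Fulvestrant against vehicle was 7.94 in at least 8 libraries, 14.3 in all 10, 8.50 at over 80% masked, 7.56 at -log10 q of at least 10, 1.69 by fold and 20.3 with a 50-bp window. For palindrome sites, the first was 12.1 with all 12 libraries, 0.33 in at least 8, 0.10 in all 10 and -9.24 to 2.33 without single libraries, and the second 0.433 with all 12, 8.18 in at least 8, 5.43 in all 10, 2.34 at over 80% masked, 2.79 by own summits, 9.33 at -log10 q of at least 10, 0.433 at q of at most 0.05 and -8.44 to 1.16 without single libraries.

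Replicate numbers were treated as names only: the deviations of same-numbered libraries correlated from -0.116 to 0.177. With the number as a replicate block, the difference was -44.0 for ERE sites and -43.3 for palindrome sites (exact permutation p = 0.0185 for each), and limma called 24 masked sites higher and 4 lower. Peak lists hold no reads, so the depth behind each value is unknown.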
